A study of Zea mays with 12 samples.

Results

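The maize gene asr1 (LOC542304) is 1 of 1108 genes that the annotation of the Affymetrix GeneChip Maize Genome Array names by exactly 1 symbol. It is read by 2 of the 17621 maize probe sets tested, found through the RefSeq synonym asr1 and told apart by their suffixes, a_at and at. Their values come from seedlings of 2 tropical inbred lines on 12 arrays, with the tissue taken to be leaves. The submitters' wording for the tissue pairs root with leaves, so that leaves is a reading of an unclear label. In places the name Cat100-6 lacks its letter t, and this was read as the same line. There were 3 arrays each of Cat100-6, labelled aluminium-tolerant, in acid soil and in control soil, and 3 each of S1587-17, labelled aluminium-sensitive, in acid soil and in control soil. The acid soil was an unlimed Dark Red Latossol of pH 4.1 with 10 mmolc/dm3 of aluminium. The control was the same soil limed with 0.8 g Ca(OH)2 per kg, which brought it to pH 5.5 with no detectable aluminium. Both soils had the same fertiliser, and acid soil received CaCl2 for calcium, so that pH, aluminium and the form of calcium differ together. All seedlings germinated for 2 days on paper and spent 3 days in soil at 26 °C with 16 h of light. Each line is a single inbred line, so that a difference between the lines cannot be assigned to tolerance. The labels call the 3 samples of a group biological replicates without saying whether they came from separate bags. The p-values set group differences against the variation among these samples, and would not extend to other bags if the samples shared a bag.

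ASR proteins, named for abscisic acid, stress and ripening, are small hydrophilic plant proteins. They act as protective, chaperone-like proteins in the cytosol and as DNA-binding proteins in the nucleus, and their genes respond to abscisic acid, water deficit and sugars. In rice, ASR5 is needed for aluminium tolerance and activates genes including STAR1, which encodes part of a transporter. In maize, ASR1 has been studied in leaves under water deficit. No other gene with an asr symbol was found among the 1452 probe sets with exactly 1 gene symbol.

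Values are log2 expression from RMA, a summary that carries no detection calls. Arrays of 1 group correlated at 0.985 to 0.997, except S1587-17 control soil replicate 3, at 0.963 and 0.967 with the other two. The mean of 9 hybridization controls, spiked into every sample, was 9.71 ± 0.31 in Cat100-6 acid soil and 10.21 ± 0.21 in Cat100-6 control soil. It was 10.17 ± 0.01 in S1587-17 acid soil and 10.26 ± 0.05 in S1587-17 control soil (SD, n = 3). Its lowest value, 9.38, was that of Cat100-6 acid soil replicate 2. Photosynthesis markers (17 probe sets) averaged 11.83 to 12.76 per array, root markers (8 probe sets) 4.57 to 5.49 and seed markers (25 probe sets) 3.74 to 4.08. Levels of different probe sets cannot be set against each other, so these values do not by themselves identify the tissue.

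Both probe sets of asr1 were bright in every group. At the a_at probe set, Cat100-6 held 12.79, 12.58 and 12.95 in acid soil, against 12.58, 12.43 and 12.59 in control soil. S1587-17 held 13.05, 13.07 and 13.11 in acid soil, against 12.93, 12.74 and 12.90 in control soil. The soils overlapped in Cat100-6, where acid soil replicate 2 lay among the control arrays, and did not overlap in S1587-17. The order of the means was S1587-17 acid soil (13.08 ± 0.03), S1587-17 control soil (12.86 ± 0.10), Cat100-6 acid soil (12.77 ± 0.19) and Cat100-6 control soil (12.53 ± 0.09) (SD, n = 3). The middle pair was 0.08 apart, within its spread, and overlapped, as did the last pair.

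At the at probe set the order was another. Cat100-6 held 12.42, 11.28 and 12.84 in acid soil, against 12.91, 12.92 and 13.04 in control soil. S1587-17 held 12.49, 12.42 and 12.33 in acid soil, against 12.52, 12.19 and 12.82 in control soil. All acid soil arrays of Cat100-6 lay below its control arrays, replicate 2 by far the most, and the soils overlapped in S1587-17. The order of the means was Cat100-6 control soil (12.96 ± 0.07), S1587-17 control soil (12.51 ± 0.32), S1587-17 acid soil (12.41 ± 0.08) and Cat100-6 acid soil (12.18 ± 0.81) (SD, n = 3). The first pair in this order did not overlap, and the later neighbours did. The SD of 0.81 was larger than that of 99.3% of all probe sets in Cat100-6 acid soil, whose median SD was 0.16.

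**Figure D1:**
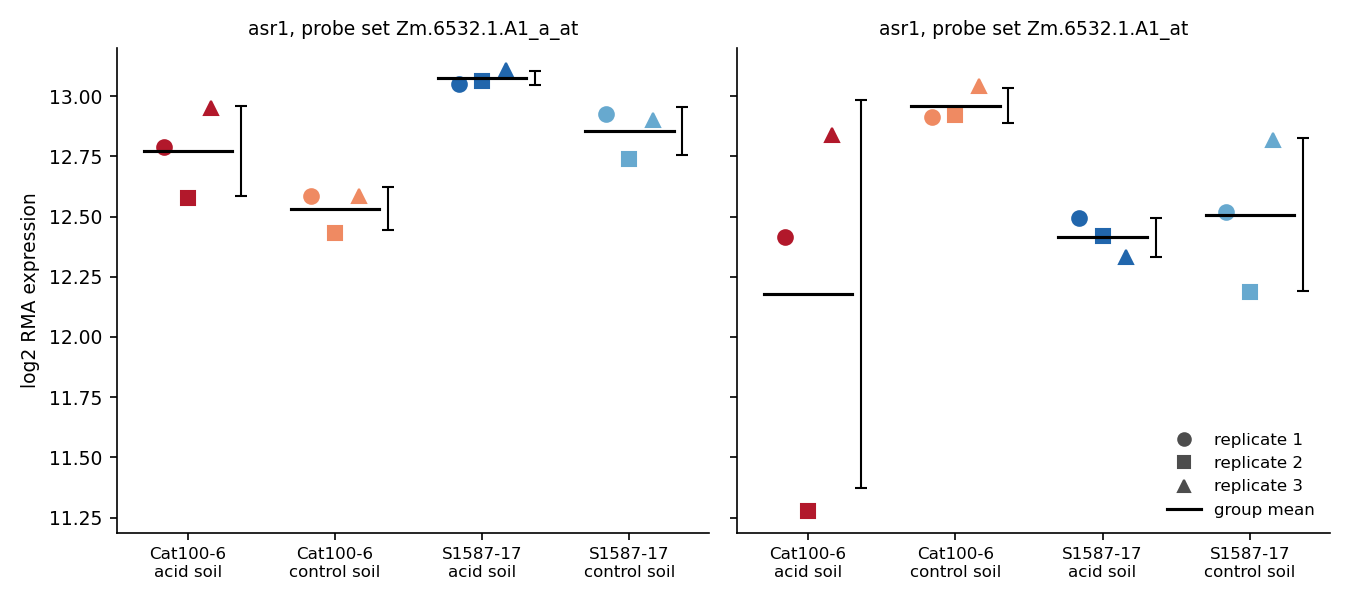
Log2 RMA expression of asr1 on each of the 12 arrays by group, in a panel for each probe set; horizontal lines are group means and the bars beside them 1 SD (n = 3). In Cat100-6 acid soil, replicate 2 holds 12.58 at the a_at probe set and 11.28 at the at probe set.

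The first comparison was between soils in the tolerant line. The estimates of the probe sets had opposite signs, and neither passed the threshold of an adjusted p of 0.05 over all probe sets. The a_at probe set differed between acid and control soil by 0.24 ± 0.11 (log2 difference ± SE), or 1.18-fold, with a 95% confidence interval of 0.0037 to 0.48 (limma adjusted p = 0.0775). The at probe set differed by -0.78 ± 0.31, or 1.72-fold lower, with an interval of -1.47 to -0.10 (limma adjusted p = 0.0521). In this comparison 55% of all probe sets passed, 23.5% higher and 31.5% lower. The soils did not overlap at 68.6% of all probe sets (27.9% higher, 40.7% lower in acid soil), so that the separation at the at probe set was a common one. In a bulk leaf sample, fewer cells of a type and less RNA per cell cannot be told apart.

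Single arrays decided which estimate passed. Without Cat100-6 acid soil replicate 2, the a_at difference was 0.34 and passed (limma adjusted p = 0.0253), and the at difference was -0.33 and did not (adjusted p = 0.153). Without Cat100-6 acid soil replicate 3, the at difference was -1.11 (adjusted p = 0.00802) and the a_at difference 0.15. Leaving out S1587-17 control soil replicate 3, which acts here only through the shared variance, brought the at difference of -0.78 past the threshold (adjusted p = 0.0372). The median of all probe sets differed by -0.14 between the soils, and by 0.36 after scaling to the hybridization controls. Relative to that median, asr1 stood at 0.38 (a_at) and -0.64 (at), values that a shift of whole arrays cannot alter, and at 0.29 and -0.60 after a second quantile normalization, which can.

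In S1587-17 neither probe set passed. The a_at probe set differed between acid and control soil by 0.22 ± 0.11, or 1.16-fold, with an interval of -0.02 to 0.46 (limma adjusted p = 0.874), and was higher on all acid soil arrays. The at probe set differed by -0.09 ± 0.31, with an interval of -0.78 to 0.59 (limma adjusted p = 0.947). The sign of the at estimate turned without S1587-17 control soil replicate 3 (0.06) and after scaling to the hybridization controls (0.0025), which took the median of all probe sets to 0.08, against -0.02 before. In this line 0% of all probe sets passed in limma, 3.48% (613) had an unadjusted p under 0.05, and the soils did not overlap at 7.66% (2.99% higher, 4.68% lower in acid soil).

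The responses of the lines were then compared directly. At the a_at probe set those of 0.24 in Cat100-6 and 0.22 in S1587-17 differed by 0.02 ± 0.15, with an interval of -0.31 to 0.35 (limma adjusted p = 0.934). At the at probe set those of -0.78 in Cat100-6 and -0.09 in S1587-17 differed by -0.69 ± 0.44, with an interval of -1.66 to 0.28 (limma adjusted p = 0.278), and by -0.24 without Cat100-6 acid soil replicate 2. Neither passed, in a comparison where 14.7% of all probe sets did (8.76% higher, 5.92% lower). That total of 2588 probe sets was 7920 without S1587-17 control soil replicate 3 and as low as 967 over the other arrays left out in turn. The wide interval of the at probe set does not show that the lines responded alike.

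**Figure D2:**
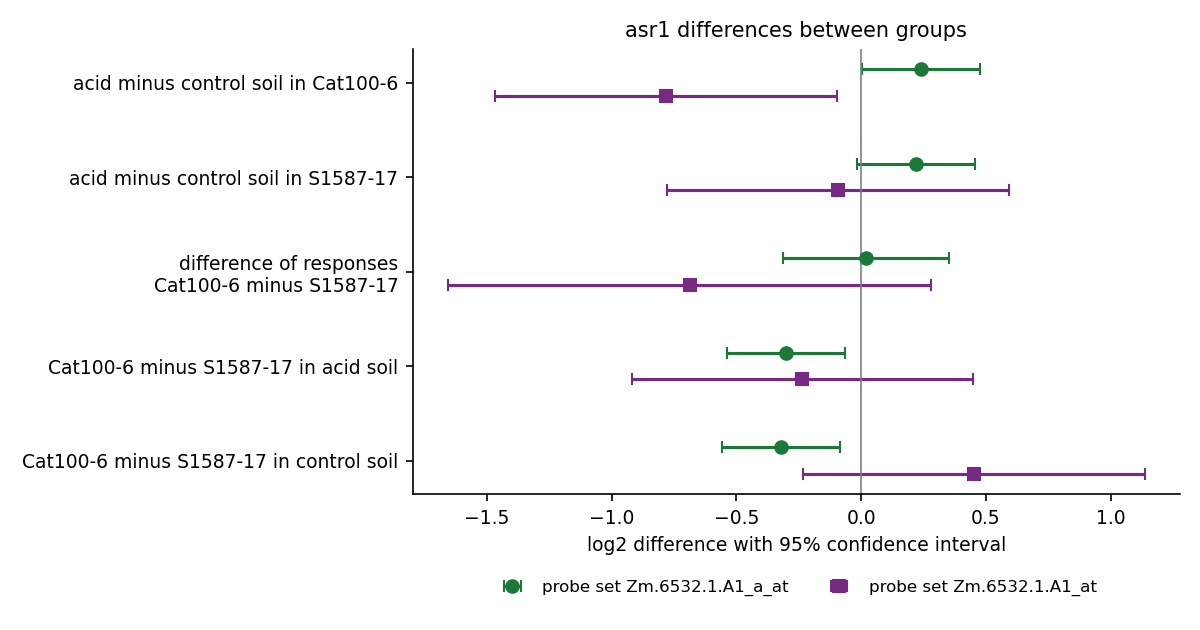
Log2 differences of asr1 in the 5 comparisons with their 95% confidence intervals from limma, for both probe sets. The intervals of the at probe set are the wider ones, and the estimates of the a_at and at probe sets lie on opposite sides of 0 in 4 comparisons, the Cat100-6 response (0.24 and -0.78), the S1587-17 response (0.22 and -0.09), the difference of responses (0.02 and -0.69) and the lines in control soil (-0.32 and 0.45), and not for the lines in acid soil (-0.30 and -0.24).

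Between the lines, the a_at probe set was lower in Cat100-6 in control soil. Its means of 12.53 ± 0.09 in Cat100-6 and 12.86 ± 0.10 in S1587-17 differed by -0.32 ± 0.11, or 1.25-fold, with an interval of -0.56 to -0.09 (limma adjusted p = 0.0262), and the lines did not overlap. In control soil 51.5% of all probe sets passed between the lines (28.2% higher, 23.2% lower in Cat100-6), and 55.5% did not overlap (31.6% higher, 23.9% lower). The call was lost without Cat100-6 control soil replicate 2 (adjusted p = 0.0962), without S1587-17 control soil replicate 1 (adjusted p = 0.0804), and in 3 other settings given in the closing section. The lines also differed in the 3′ over 5′ signal of control genes, a measure of RNA and labelling quality. It was 0.74 ± 0.08 in Cat100-6 control soil and 0.25 ± 0.15 in S1587-17 control soil, and its part was not tested. No sequences were used, so how well the probes match each line was not tested either.

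In acid soil the a_at difference between the lines was -0.30 ± 0.11, with an interval of -0.54 to -0.07, and did not pass (limma adjusted p = 0.0642), although the lines did not overlap. Here 24% of all probe sets passed (13.3% higher, 10.6% lower in Cat100-6), and 45.5% did not overlap (22.7% higher, 22.8% lower). Leaving out Cat100-6 acid soil replicate 3 brought it past the threshold (adjusted p = 0.0307), and so did leaving out S1587-17 control soil replicate 3 (adjusted p = 0.0475). After scaling to the hybridization controls it was 0.15, but this scaling shifts all probe sets alike and took their median to 0.43, against -0.02 before, so that asr1 relative to the median was -0.28 both times.

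The at probe set did not give the same order of the lines. In control soil it was higher in all Cat100-6 arrays than in any S1587-17 array, a difference of 0.45 ± 0.31 that did not pass (interval -0.23 to 1.14, limma adjusted p = 0.250). It passed without Cat100-6 acid soil replicate 2, which acts here only through the shared variance (adjusted p = 0.0365). In acid soil the difference was -0.24 ± 0.31 (interval -0.92 to 0.45, limma adjusted p = 0.645), and 0.21 without Cat100-6 acid soil replicate 2.

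Since the probe sets read 1 gene, their difference on each array was examined. In the naming of Affymetrix arrays, a_at marks a set whose probes are shared by several transcripts of 1 gene, and at alone a set specific to a single transcript. Probe sets differ in brightness for reasons of their probes, so the size of the difference has no meaning of its own and only its change between groups is compared. The a_at value minus the at value was 0.37, 1.30 and 0.11 in Cat100-6 acid soil, against -0.33, -0.49 and -0.46 in Cat100-6 control soil. It was 0.56, 0.65 and 0.78 in S1587-17 acid soil, against 0.41, 0.56 and 0.08 in S1587-17 control soil. The soils were far apart in Cat100-6, while in S1587-17 the lowest acid soil array barely exceeded the highest control array.

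The difference between the probe sets was larger in acid than in control soil by 1.02 in Cat100-6 and by 0.31 in S1587-17. An exact two-sided permutation test gave p = 0.10 in each line (n = 3 per group), the smallest value that the 20 arrangements of 1 line allow, so that this test cannot reach 0.05; no model with a variance pooled over the 4 groups was fitted to this difference. Without Cat100-6 acid soil replicate 2 the value in Cat100-6 was 0.67, and without S1587-17 control soil replicate 3 that in S1587-17 was 0.18. The 3′ over 5′ signal of 5 control genes, a measure of RNA and labelling quality, averaged 0.70 ± 0.07 in Cat100-6 acid soil and 0.74 ± 0.08 in Cat100-6 control soil. It averaged 0.19 ± 0.13 in S1587-17 acid soil and 0.25 ± 0.15 in S1587-17 control soil (log2, SD, n = 3). Its part in these values and in the asr1 differences between the lines was not tested.

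**Figure D3:**
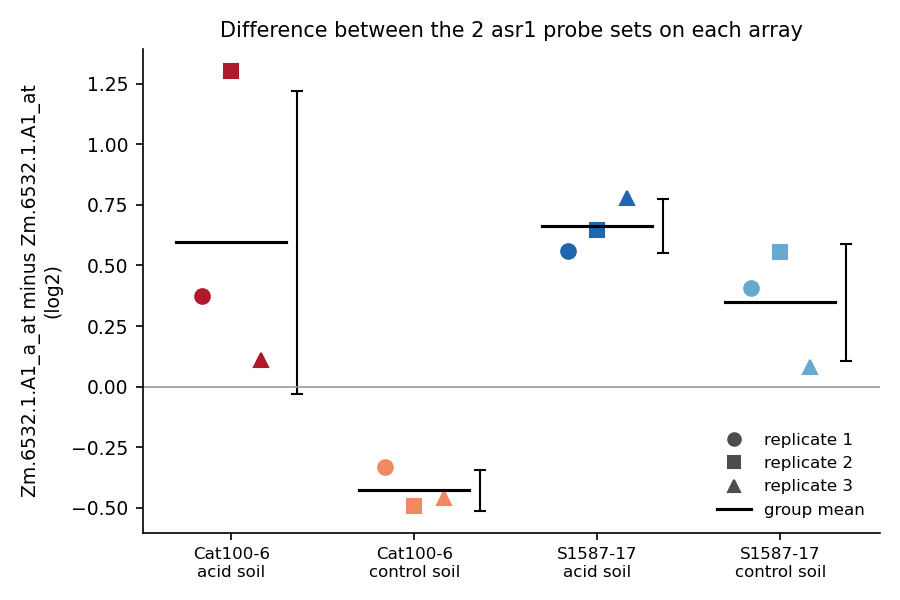
The a_at value minus the at value of asr1 on each array, in log2 units, by group; lines are group means and bars 1 SD (n = 3). The Cat100-6 acid soil arrays spread from 0.11 to 1.30, and the Cat100-6 control soil arrays lie between -0.49 and -0.33.

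Likeness of pattern was measured as the root mean square difference between values over the 12 arrays, each probe set centred on its own mean. By this measure the asr1 probe sets were 0.52 log2 units apart. Among the 17620 other probe sets, the at probe set was the 12544th nearest to a_at, and a_at the 9944th nearest to at. The median distance to all others was 0.37 from a_at and 0.49 from at. The measure is not scaled for spread, and the SD over the 12 arrays was 0.23 at a_at and 0.48 at the at probe set. On Cat100-6 acid soil replicate 2 the centred values were -0.23 and -1.24. Other genes with several probe sets served as a description, chosen after the asr1 values had been seen. There were 535 such pairs from 221 genes, so that a gene can enter with several pairs. Their median was 0.29, 126 were farther apart than the pair of asr1, and 158 (29.5%) had responses of opposite sign in Cat100-6. In 94 pairs, from 50 genes, both probe sets averaged at least 10, as those of asr1 do. The median of these was 0.12, 5 were farther apart and 7 (7.45%) had opposite signs.

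The 5 named genes most like each asr1 probe set, out of 965 searched, were all different. Nearest to a_at was gst1, a glutathione transferase gene, at 0.076 log2 units. It averaged 12.95 in Cat100-6 acid soil and 12.83 in Cat100-6 control soil, and 13.23 in S1587-17 acid soil and 13.02 in S1587-17 control soil. It was followed by the thioredoxin gene trh2 (0.105), IPP (0.112), arf1 (0.117) and ubc7, a gene of a ubiquitin-conjugating enzyme (0.128). All 5 had the group order of the a_at probe set, which their choice by likeness on the same arrays favours. With a second quantile normalization, 2 of them were again among the nearest 5.

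Nearest to the at probe set was MNB1a, the gene of a Dof-type DNA-binding protein, at 0.159. It was followed by aprl3 (0.172), mdh6, the gene of chloroplast malate dehydrogenase (0.174), the β-expansin gene expB6 (0.180) and pep1, the gene of the phosphoenolpyruvate carboxylase of C4 photosynthesis (0.180). MNB1a held 8.71, 7.87 and 9.28 in Cat100-6 acid soil, against 9.72, 9.46 and 9.54 in Cat100-6 control soil. All 5 had the group order of the at probe set, and all were lowest on Cat100-6 acid soil replicate 2. Their choice by likeness on the same arrays favours both, so that neither is a separate result. The likeness is over 12 shared arrays and describes these values only.

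The photosynthesis markers, among them mdh6 and pep1, were also low on Cat100-6 acid soil replicate 2. Their mean was 12.32, 11.83 and 12.48 in Cat100-6 acid soil, against 12.76, 12.74 and 12.75 in Cat100-6 control soil. It was 12.19, 12.23 and 12.05 in S1587-17 acid soil, against 12.12, 12.25 and 12.57 in S1587-17 control soil. The lowest array and the highest S1587-17 array were the same as at the at probe set, but the highest array (Cat100-6 control soil replicate 1) and the lowest S1587-17 array (acid soil replicate 3) were not. Centred, this mean was 0.245 log2 units from the at probe set and 0.435 from a_at. In Cat100-6, 11 of the 17 photosynthesis marker probe sets were lower and 1 higher in acid soil, beside 31.5% lower and 23.5% higher of all probe sets. One of the lower ones was gpb1, the gene of a chloroplast glyceraldehyde phosphate dehydrogenase (-0.73 ± 0.14, limma adjusted p = 0.00192). The part of leaf cell content in the asr1 values was not tested.

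**Figure D4:**
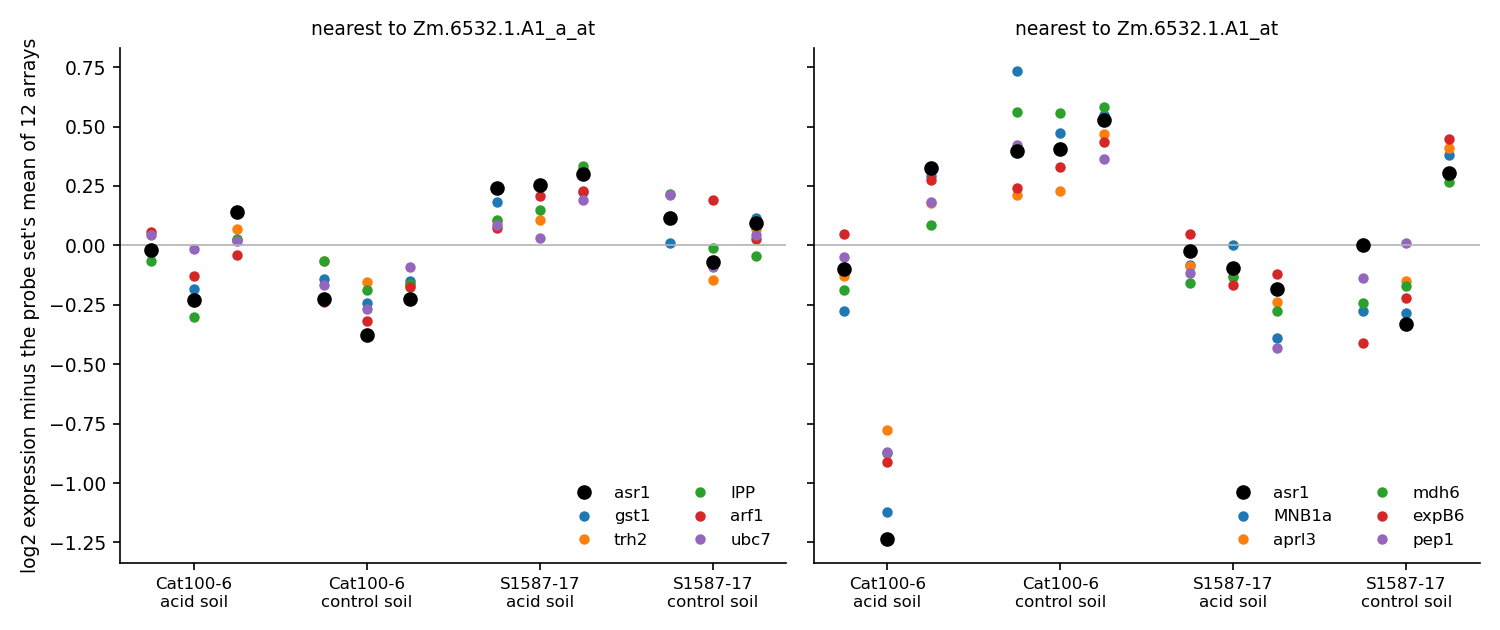
Log2 expression minus the mean of the 12 arrays for each asr1 probe set and the 5 named genes nearest to it; within a group the positions are replicates 1 to 3. In the panel of the at probe set, asr1 and the 5 genes chosen by likeness to it have their lowest point at Cat100-6 acid soil replicate 2. There MNB1a holds 7.87 and pep1 12.83 before centring.

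Lists of abscisic acid, water deficit and sugar genes surround asr1, since ASR genes respond to all of these. In Cat100-6, 20 of their 35 probe sets passed between the soils, a share near the 55% of all probe sets. The 9 probe sets of abscisic acid synthesis and signalling read 6 genes. In acid soil 1 probe set was higher and 5 lower, with a median of -0.33 beside -0.14 for all probe sets. The lower count was 2 without Cat100-6 acid soil replicate 2, 3 when any of 6 other arrays was left out in turn, and 1 after scaling to the hybridization controls. In this comparison that scaling shifts all probe sets alike and took their median to 0.36, against -0.14 before. The carotenoid desaturase gene pds1, which acts upstream of abscisic acid, held 10.55 in acid soil and 11.60 in control soil (-1.05 ± 0.22, limma adjusted p = 0.00268). The transcription factor gene vp1, of abscisic acid signalling in seeds, differed by -0.50 ± 0.12 (limma adjusted p = 0.00558) at its brightest probe set. After scaling to the hybridization controls it differed by -0.0079, and its place relative to the median of all probe sets stayed the same. Most of the lower probe sets of this list were those of vp1, the dimmer ones near the threshold (limma adjusted p = 0.0488 and 0.0475).

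Of 10 probe sets of late embryogenesis abundant proteins, dehydrins and water deficit, 1 was higher, 1 lower and 8 did not pass in Cat100-6, with a median of 0.02. The higher count was 0 without replicate 2 of Cat100-6 in either soil, at most 2 over the other arrays left out in turn, and 4 after scaling to the hybridization controls. The lower count was 2 without S1587-17 control soil replicate 3. The dehydrin gene dhn2 averaged 10.13 in Cat100-6 acid soil and 9.76 in Cat100-6 control soil, and 10.62 in S1587-17 acid soil and 10.30 in S1587-17 control soil. Its brightest probe set did not pass in either line (0.37, adjusted p = 0.0635 in Cat100-6; 0.33, adjusted p = 0.874 in S1587-17), and another of its probe sets passed in Cat100-6 (0.51, limma adjusted p = 0.0184). The transcription factor gene dbf2 fell by 0.53 in Cat100-6 (limma adjusted p = 0.00249). After scaling to the hybridization controls it differed by -0.03, through the same shift of all probe sets.

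Of 16 probe sets of sucrose and hexose metabolism and transport, 4 were higher and 8 lower in Cat100-6, with a median of -0.39. After scaling to the hybridization controls, which shifts all probe sets upward alike, 3 were lower. The sucrose phosphate synthase gene sps1 held 6.23 in acid soil and 10.48 in control soil (-4.25 ± 0.49, limma adjusted p = 0.000134). The cell wall invertase gene incw1 differed by -1.83 ± 0.23 (adjusted p = 0.000181). Of the markers of other tissues, 4 of 8 root and 9 of 25 seed probe sets were lower and 0 higher, beside 31.5% lower and 23.5% higher of all probe sets. Among the lower ones were zrp4 (-1.81), rcp1 (-0.94), fl1 (-1.11) and dzs18 (-0.57), and their part in the lists was not tested. The dzs18 value is that of its brightest probe set, at 3.00 in acid and 3.57 in control soil. Its other probe sets did not pass (-0.17, 0.03 and -0.14).

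In S1587-17 no probe set of the abscisic acid, water deficit or sugar list passed in limma, and 1 of 9, 3 of 10 and 1 of 16 had an unadjusted p under 0.05, beside 3.48% of all probe sets. The 3 of the water deficit list were probe sets of dhn2, higher in acid soil (0.45 and 0.40), and of 1 other gene, lower (-0.26). Between the lines in control soil, abscisic acid genes were higher in Cat100-6 at 5 of 9 probe sets and lower at 0, and sugar genes higher at 10 and lower at 2 of 16, beside 28.2% higher and 23.2% lower of all probe sets. The water deficit list was higher at 3 and lower at 3 of 10 probe sets in control soil. In acid soil it was higher at 4 and lower at 4, where 13.3% of all probe sets were higher and 10.6% lower. All the lower ones in control soil were probe sets of dhn2, and those in acid soil were of dhn2 and dbf2. The aluminium tolerance list matched asr1 alone, and the list of branched-chain amino acid synthesis matched no named probe set.

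**Figure D5:**
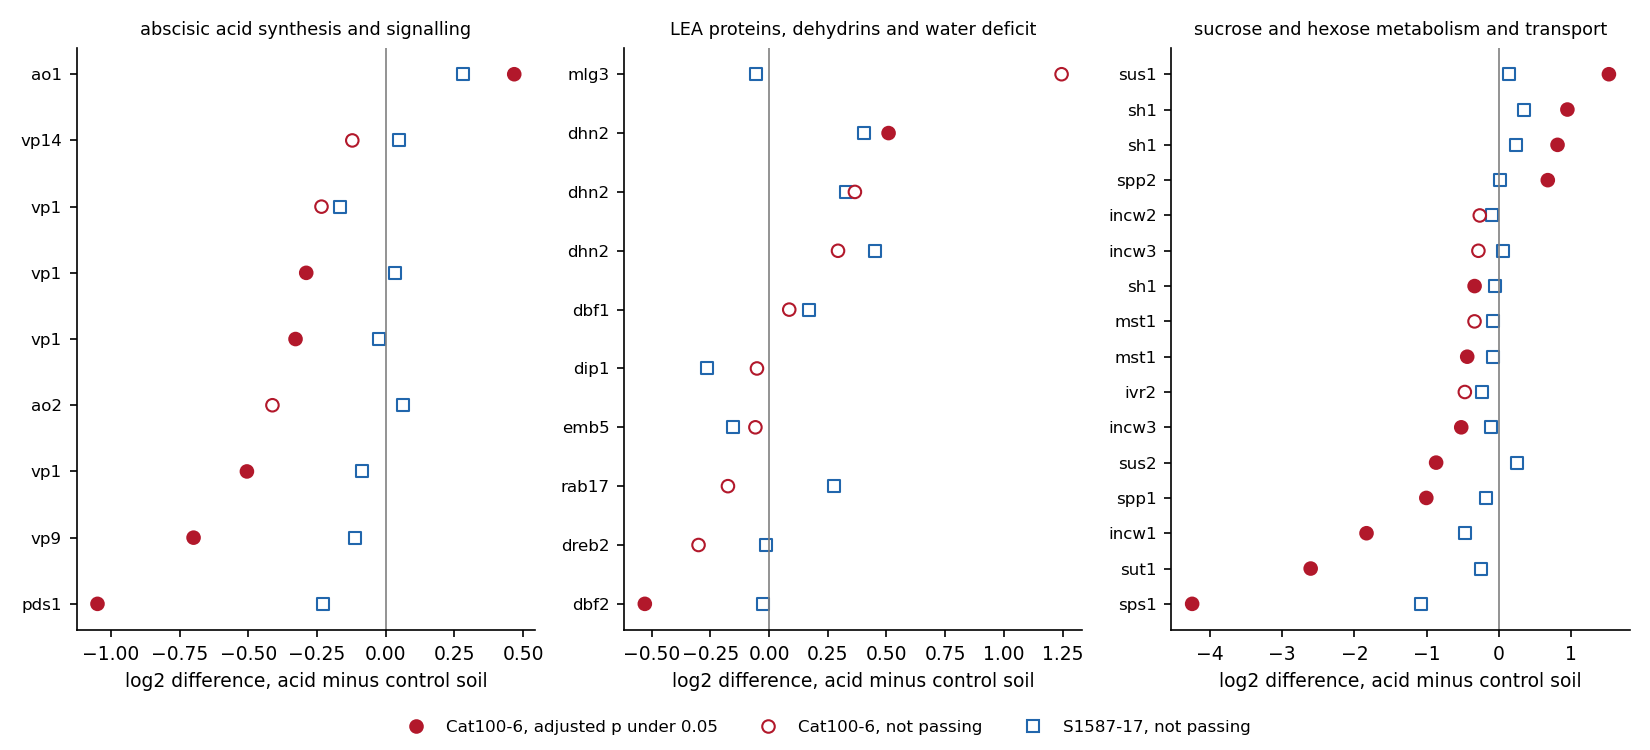
Log2 difference between acid and control soil for every probe set of 3 gene lists, in both lines; a gene appears once for each of its probe sets. The lowest Cat100-6 value is that of sps1 (-4.25), and no S1587-17 value passed.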

How the data were processed

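The authors deposited log2 expression values made with RMA, as the submitters' processing notes state; software, version and settings are not stated in the sources at hand. Precision rests on the number of arrays, which carry no read depth. Of 17734 probe sets, 113 controls were left out and 17621 tested; 16168 of these have no gene symbol. Genes were named through the platform annotation and RefSeq (NAM 5.0). No coordinates or sequences were used.

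A mean for each of the 4 groups was fitted with limma 3.58.1 (R 4.3.3) to all 12 arrays, leaving 8 residual degrees of freedom for moderated tests, with Benjamini-Hochberg adjustment over all probe sets tested. The fit was tested on simulated data.

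The gene and the lists were chosen with earlier results of these data known. Named were, from each list, up to 2 genes of lowest p in Cat100-6 at their brightest probe set, and the 5 genes nearest to each asr1 probe set. In 5 cases a list match was left out because synonyms showed another gene.

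Alternatives were leaving out the 40% dimmest probe sets, second quantile normalization, medians subtracted, scaling to hybridization controls, fitting only the compared groups, trended robust variance, weighting arrays, blocking on replicate number, and leaving out each array.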

Additional observations from a re-analysis of the deposited data

Results flagged for a closer look

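No asr1 value is among the results singled out here, since groups of 3 are too small to test for an outlying array and neither asr1 response differed between the lines past the threshold. For 3 other named genes the responses to acid soil differed between Cat100-6 and S1587-17 by the test of the difference itself. List genes were named for a low p of the Cat100-6 response, which is a part of this difference. Of all probe sets 14.7% passed this test, and of the 16 sugar probe sets 1 was higher and 3 lower. The sucrose phosphate synthase gene sps1 responded by -4.25 in Cat100-6 and -1.08 in S1587-17, a difference of -3.17 ± 0.69 (limma adjusted p = 0.0170). The cell wall invertase gene incw1 responded by -1.83 in Cat100-6 and -0.47 in S1587-17, a difference of -1.36 ± 0.32 (limma adjusted p = 0.0216). That of incw1 did not pass in 8 of 19 other settings, among them the scaling to hybridization controls (-0.96), the replicate block and 6 single arrays left out in turn. The root marker zrp4 responded by -1.81 in Cat100-6 and 0.00071 in S1587-17, a difference of -1.81 ± 0.30 (limma adjusted p = 0.00571).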

How the results depend on the processing

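Scaling and single arrays moved the asr1 calls; the cause was not tested. At the a_at probe set, the Cat100-6 response passed after scaling to hybridization controls (0.74, adjusted p = 0.00463) and with array weights (0.31), with 0.15 to 0.34 over arrays left out. The difference of the responses changed sign with second quantile normalization (-0.036) and medians subtracted (-0.052), with -0.069 to 0.12 over arrays left out. The difference between lines in acid soil passed with medians subtracted (-0.35) and was 0.15 after scaling to hybridization controls, which shifts all probe sets, with -0.39 to -0.21 over arrays left out. In control soil it no longer passed with second quantile normalization (-0.26), after scaling to hybridization controls (-0.27) or with only the groups compared (-0.32, adjusted p = 0.0602), with -0.38 to -0.27 over arrays left out. At the at probe set, the Cat100-6 response passed without the 40% dimmest probe sets (-0.78, adjusted p = 0.0489) and with medians subtracted (-0.88), with -1.11 to -0.33 over arrays left out. Its S1587-17 response was 0.0025 after scaling to hybridization controls, with -0.26 to 0.062 over arrays left out. Between lines it was 0.22 in acid soil after scaling to hybridization controls (-0.57 to 0.21 over arrays left out), and passed in control soil with array weights (0.52, with 0.29 to 0.61 over arrays left out). The change in the difference between the probe sets kept its sign in the 8 settings run for each line. After scaling to hybridization controls, 13 of the 35 related probe sets passed in Cat100-6, with 15 to 22 over arrays left out. Of all 17621 probe sets, 7639 passed after that scaling, against 9697 before, with 7731 to 10939 over arrays left out. The difference of responses of dhn2 (0.04) changed sign with medians subtracted (-0.033) and ran from -0.13 to 0.19 over arrays left out. The difference of responses of dzs18 (-0.39) was 0.012 after scaling to hybridization controls, which shifts all probe sets. Over all probe sets, 2588 differed in response between the lines, against 7381 with array weights and 1193 with a replicate block, and 4223 differed between lines in acid soil, against 6866 after scaling to hybridization controls. In S1587-17 the count of 0 in limma was 1 after scaling to hybridization controls and 2 with array weights.

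The labels do not say that a replicate number marks a shared bag, batch or day, so the numbers were not taken to pair samples. Same-numbered arrays of a line correlated at -0.29 to 0.16 in their deviations, and differently numbered ones at -0.42 to 0.32. Deviations within groups this small are tied to each other, so these values cannot exclude a pairing. With a replicate block, added for this contrast after the data were seen, the acid soil difference between lines at the a_at probe set (-0.30) passed (adjusted p = 0.0386), and no other asr1 call changed. The differences of responses of sps1 (-3.17) and incw1 (-1.36) did not pass with the block.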
